A study of Mus musculus with 4 samples.

Results

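The 10 genes described here encode the machinery that cuts intracellular proteins into peptides and shows them on MHC class I. They were H2-K1, H2-D1, B2m, Tap1, Tap2, Tapbp, Psmb8, Psmb9, Psmb10 and Nlrc5, taken by name from the 54146 genes of the count table through GENCODE M21, and each name matched 1 gene. RNA came from tumor associated macrophages (TAMs), sorted as live CD11b+ F4/80+ cells from CD45+ fractions of MCA205 tumors. MCA205 is a mouse fibrosarcoma cell line, which was implanted under the skin of female C57BL/6 mice of 8 to 16 weeks. Propranolol mice drank water with propranolol hydrochloride, a nonselective beta blocker, at 0.5 g/L from the day of inoculation, and control mice were labelled vehicle. There were 2 libraries in each group. The study calls them biological replicates, and the number of mice behind each was not given in the sources used here. Total counts were 13798249 and 23018142 in control replicates 1 and 2, and 39818103 and 16424081 in propranolol replicates 1 and 2.

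In the class I pathway, the proteasome degrades proteins in the cytosol, and in cells exposed to interferon-gamma its catalytic subunits are replaced by Psmb8, Psmb9 and Psmb10 to give the immunoproteasome. The Tap1-Tap2 transporter pumps the peptides into the endoplasmic reticulum, where Tapbp (tapasin) holds it next to new class I molecules. A heavy chain such as H2-K or H2-D, the light chain beta-2-microglobulin and a peptide form the complex that CD8+ T cells read, and Nlrc5 is the transactivator of these genes. Macrophages use the same route for peptides of ingested proteins.

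Of the 2 heavy chains 1 rose in propranolol TAMs, as did 2 of the 3 immunoproteasome subunits, while B2m fell, and none of these calls remained once the trend of fold changes with GC content was removed. All 10 genes passed the filter on low counts. A gene is called changed where the adjusted p of the edgeR quasi-likelihood test was under 0.05 and the difference exceeded 1.5-fold. By this rule H2-D1, Psmb9 and Psmb10 rose, B2m fell and 6 members did not change. Of all 14688 tested genes, 27.8% were changed, 12.2% higher and 15.6% lower. Without the fold threshold, 7 members were higher and 1 was lower, against 21.8% and 20.4% of all tested genes. The median log2 fold change of the members was 0.43, and that of all tested genes was -0.02. The members were chosen with these libraries' results known, so these counts describe the list and do not test it. In bulk RNA, fewer cells of a type and less RNA per cell cannot be told apart.

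Fold changes in these libraries followed the GC content of the genes, and the members' values moved with it. Genes of high GC content had higher values in propranolol libraries and genes of low GC content lower ones. When this trend was removed, 0 of the 10 members remained changed, against 12.6% of all tested genes (7.64% higher and 4.97% lower). In that fit H2-D1, Psmb9 and Psmb10 were still higher at an adjusted p under 0.05, as were 17.5% of all tested genes. With a library left out as well, this held for these genes without propranolol replicate 2, and for Psmb10 also without control replicate 2, but not in the other such fits. B2m, Tap1, Tapbp and Nlrc5 switched direction, to values between -0.15 and 0.06. Of the changed genes, 44.0% were higher without the correction and 60.6% with it. The correction also moved the median of all genes by 0.11 on the log2 scale, so that corrected values are to be read against a median of 0.09.

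**Figure D1:**
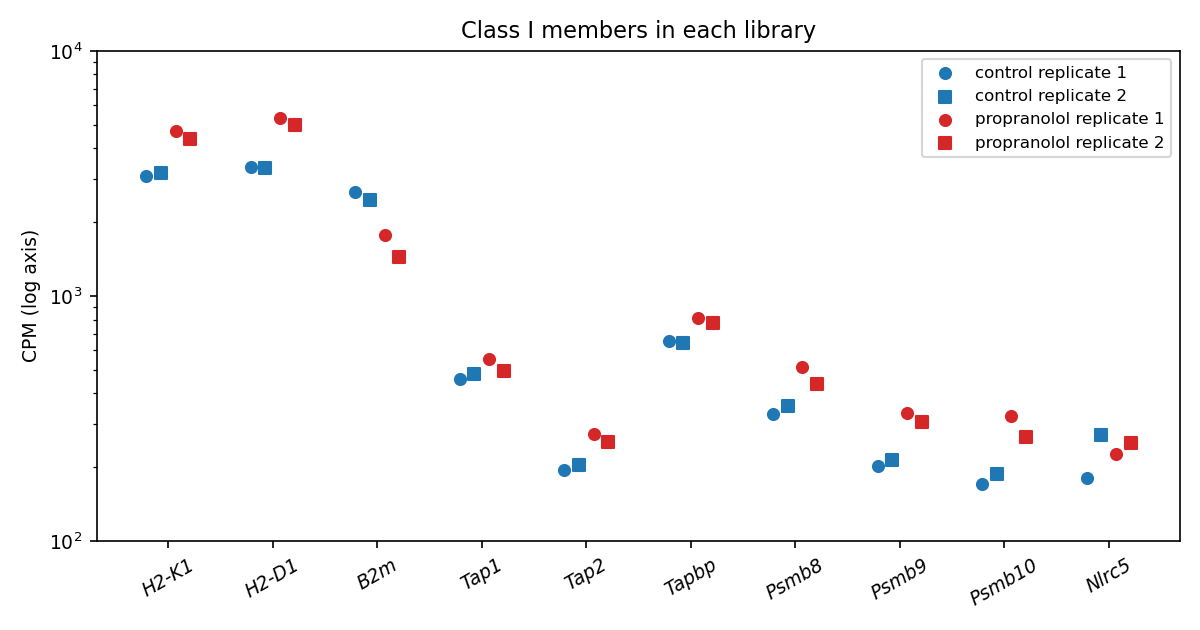
CPM of the 10 members (log axis), with blue points for the control libraries, red points for the propranolol libraries, circles for replicate 1 and squares for replicate 2. Both propranolol libraries were above both control libraries in 8 members (35.8% of all tested genes), both were below in B2m (36.9% of all tested genes), and the groups overlapped in Nlrc5.

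H2-K1 and H2-D1 encode the classical class I heavy chains that present peptides to CD8+ T cells, and they lie on opposite sides of the class II region on chromosome 17 (mm10). H2-K1 (chr17:33996017-34000347, minus strand) had 3077 and 3169 CPM in the control libraries and 4700 and 4354 CPM in the propranolol libraries, where CPM are counts scaled to the TMM-normalized library size. Its groups did not overlap, and replicates lay close together. The log2 fold change was 0.54 ± 0.08 (SE) with an adjusted p of 0.000834, which was below the 1.5-fold threshold.

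H2-D1 (chr17:35262730-35267499, plus strand) had 3356 and 3324 CPM in the control libraries and 5315 and 4984 CPM in the propranolol libraries. It rose with a log2 fold change of 0.62 ± 0.08 (SE; adjusted p = 0.00035), and the groups did not overlap. Without propranolol replicate 1 its value was 0.58, just below the 1.5-fold threshold. With upper-quartile factors in place of TMM it was 0.57. After GC correction the values were 0.27 ± 0.09 for H2-K1 and 0.31 ± 0.10 for H2-D1, with adjusted p values of 0.0652 and 0.0412. Over 17 alternative fits, which include GC correction with a library left out, the adjusted p ranged from 6.29e-12 to 0.274 for H2-K1 and from 1.01e-15 to 0.177 for H2-D1. The lowest log2 fold changes were 0.19 and 0.23, both with GC correction and without propranolol replicate 1.

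Reads of these paralogs can be shared. In the longest H2-K1 transcript, 8.11% of the 50-base windows also occurred in another gene, most often H2-D1. In H2-D1 the share was 14.3%, most often with H2-Q1, and 4.64% of its 100-base windows were shared. The study kept alignments of high mapping quality, so reads from such windows may be missing from both genes.

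B2m (chr2:122147686-122153083, plus strand), which encodes the light chain that every class I heavy chain needs, moved the other way. It had 2641 and 2462 CPM in the control libraries and 1766 and 1438 CPM in the propranolol libraries. Both propranolol libraries were below both controls, and propranolol replicate 2 was the lowest. B2m fell by 0.67 ± 0.11 on the log2 scale (SE; adjusted p = 0.000985). It dropped by 0.56 without control replicate 1 and by 0.50 without propranolol replicate 2, and neither exceeded 1.5-fold. The longest annotated transcript of B2m had a GC content of 41.2%, the lowest of the members. The 945 tested genes within 1 percentage point of it had a median log2 fold change of -0.70. After GC correction the difference was 0.06 ± 0.10 (SE) with an adjusted p of 0.682, and over 17 alternatives it ranged from 3.14e-10 to 0.911.

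Promoter sequences are shown for H2-K1 and B2m, whose chains are assembled together and whose values moved in opposite directions before GC correction. RefSeq promoters (GRCm38.p6) were matched for H2-K1, H2-D1, B2m, Tap1, Tapbp, Psmb8, Psmb9 and Psmb10, which are 8 of the 10 members. The stretches below end before the annotated start and hold no annotated exon. They run 5′ to 3′ on the strand of the gene. Capitals mark kappa-B-like (GGGA, up to 2 bases, TTCC), interferon response element-like (GAAA, any 2 bases, GAAA), X2-like (TGACG) and Y-like (CCAAT) letters. The Y-like match of both genes, read here as ATTGG, and the kappa-B-like match of B2m lie on the other strand.
H2-K1, chr17:34000354-34000462: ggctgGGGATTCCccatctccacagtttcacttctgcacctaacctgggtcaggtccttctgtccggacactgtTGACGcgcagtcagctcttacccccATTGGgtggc
B2m, chr2:122147543-122147643: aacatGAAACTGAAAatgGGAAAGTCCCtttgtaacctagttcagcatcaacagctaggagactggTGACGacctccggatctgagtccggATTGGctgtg

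In both sequences 20 bases lay between TGACG and ATTGG, and the same was true of H2-D1. This spacing was searched after it had been seen, and it occurred in 0.0913% of 32851 promoters, which were those of 26 genes including H2-M3. Within 250 bases before the start and on either strand, TGACG was found in 17.8% of all promoters and CCAAT in 33.8%. Kappa-B-like letters occurred in 3.49% of promoters, and H2-K1, H2-D1 and B2m each had 1 match. The interferon response element-like letters occurred in 2.98% of promoters, and among the members in B2m. Only these exact letters were searched, so a promoter without a match can still hold a variant of the element. Tap1 and Psmb9, which are transcribed in opposite directions from neighbouring starts, shared 1 TGACG and 1 CCAAT. Tapbp had 2 matches to CCAAT. Psmb8 had 1 match to the gamma-activated site-like TTCNNNGAA, which 7.02% of promoters held. For Psmb10, none of these letters lay within the window. GENCODE M21 places exons over all 250 bases of the H2-D1, Tap1, Tapbp, Psmb8 and Psmb9 windows and over 52 bases of the Psmb10 window, so these windows lie before the RefSeq start and not before every annotated start. A match is a description of the letters only.

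Among the 3 catalytic subunits of the immunoproteasome, Psmb9 and Psmb10 rose and Psmb8 was higher but below the fold threshold. Psmb9 (chr17:34181987-34187764, minus strand), also called LMP2, replaces the subunit Psmb6. It had 202 and 213 CPM in the control libraries and 333 and 305 CPM in the propranolol libraries, and these did not overlap. Psmb9 rose with a log2 fold change of 0.62 ± 0.10 (SE; adjusted p = 0.000913).

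Psmb10 (chr8:105935735-105938444, minus strand), also called MECL-1, replaces Psmb7. It had 171 and 187 CPM in the control libraries and 323 and 266 CPM in the propranolol libraries. The groups did not overlap, and propranolol replicate 1 was the highest. Psmb10 rose with a log2 fold change of 0.72 ± 0.12 (SE, adjusted p = 0.000996). Among the members this was the largest value with TMM factors and no library left out.

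Psmb8 (chr17:34197721-34201454, plus strand), also called LMP7, replaces Psmb5. It had 329 and 354 CPM in the control libraries and 511 and 434 CPM in the propranolol libraries. These did not overlap either. The log2 fold change was 0.47 ± 0.11 (SE; adjusted p = 0.00575), below the fold threshold. Exons of Psmb8 shared 498 bases, 14.7% of their length, with Gm20496 on the opposite strand, and no strand option was named for the counting.

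The calls for the immunoproteasome depended on propranolol replicate 1. Without it Psmb9 had a log2 fold change of 0.56 and Psmb10 one of 0.57, both below 1.5-fold. Without propranolol replicate 2, Psmb8 reached 0.62 and H2-K1 also 0.62, and both passed. With upper-quartile factors Psmb9 was at 0.56. After GC correction the values were 0.30 ± 0.11 for Psmb8, 0.36 ± 0.10 for Psmb9 and 0.40 ± 0.12 for Psmb10. The corrected adjusted p was 0.0253 for Psmb9 and 0.043 for Psmb10, and over 17 alternatives it ranged from 2.79e-09 to 0.121 and from 1.01e-11 to 0.238. With GC correction and without propranolol replicate 1, the values were 0.16 for Psmb8, 0.27 for Psmb9 and 0.21 for Psmb10. With GC correction and without propranolol replicate 2 they were 0.45, 0.48 and 0.60, and Psmb10 was changed.

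**Figure D2:**
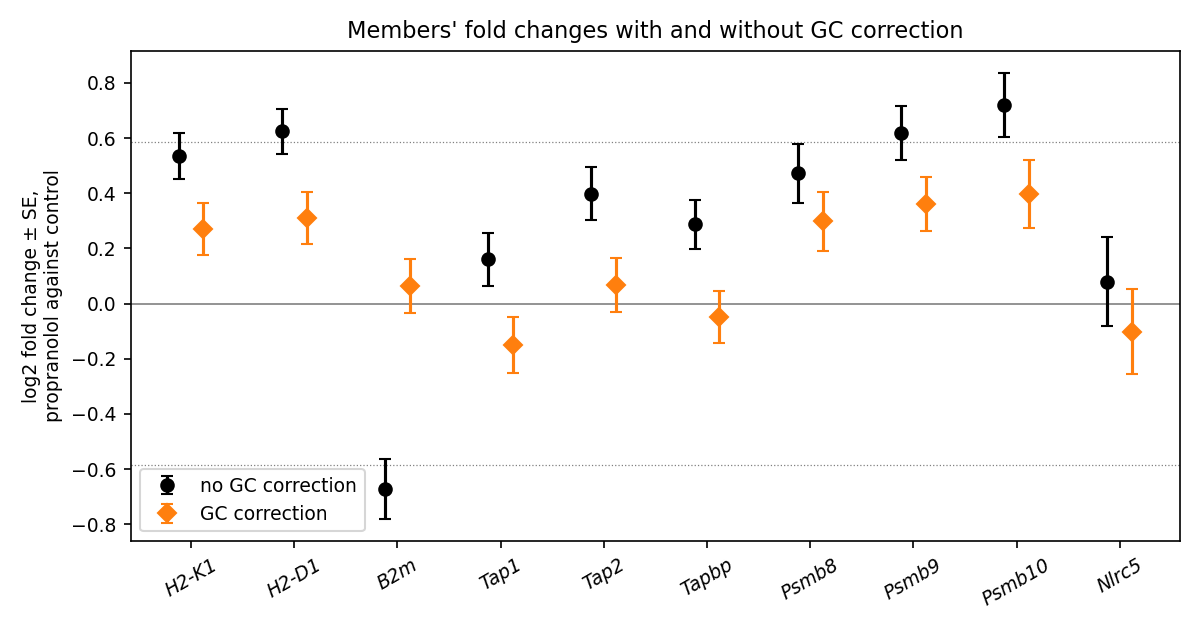
Log2 fold change (propranolol against control) with SE for each member, without (black circles) and with (orange diamonds) GC correction, and dotted lines at a 1.5-fold change. H2-D1, Psmb9, Psmb10 and B2m lay beyond the dotted lines without the correction and none of the 10 did with it, and B2m, Tap1, Tapbp and Nlrc5 crossed 0.

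None of the genes of the peptide transporter and tapasin was changed. Tap1 (chr17:34187553-34197225, plus strand) had 456 and 482 CPM in the control libraries and 552 and 495 CPM in the propranolol libraries. Its groups were close but did not overlap. The log2 fold change was 0.16 ± 0.10 (SE; adjusted p = 0.212).

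Tap2 (chr17:34203527-34216321, plus strand), the partner of Tap1 in the transporter, had 194 and 204 CPM in the control libraries and 271 and 254 CPM in the propranolol libraries. Both propranolol libraries were higher, with a log2 fold change of 0.40 ± 0.10 (SE; adjusted p = 0.00808). This was below the fold threshold.

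Tapbp (chr17:33915899-33929292, plus strand) had 655 and 643 CPM in the control libraries and 811 and 773 CPM in the propranolol libraries. The groups did not overlap, and the log2 fold change was 0.29 ± 0.09 (SE; adjusted p = 0.0249). After GC correction the log2 fold changes were -0.15 for Tap1, 0.07 for Tap2 and -0.05 for Tapbp. Tap1 and Psmb9 shared 212 exon bases on opposite strands, Tap2 shared 533 with Gm15821, and Tapbp shared 904 with Gm19412, so that reads there cannot be assigned without strand.

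Nlrc5 (chr8:94434356-94527272, plus strand), the class I transactivator, was the member whose groups overlapped. It had 181 and 269 CPM in the control libraries and 226 and 251 CPM in the propranolol libraries. Control replicate 1 was the lowest library and control replicate 2 the highest. The log2 fold change was 0.08 ± 0.16 (SE; adjusted p = 0.724). Leaving out control replicate 1 gave -0.12 and leaving out control replicate 2 gave 0.41. The corresponding adjusted p values were 0.598 and 0.0284, and over 17 alternatives they ranged from 0.0284 to 0.933.

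Across the members, both propranolol libraries were above both controls in 8 genes and below them in 1. Among all tested genes this was so in 35.8% and 36.9%. Propranolol replicate 1 had the higher value of its pair in 9 of the 10 members, and control replicate 1 in 3. Centred on each gene's mean log2 CPM over the libraries, the members' average was -0.21 and -0.11 in control TAMs and 0.23 and 0.10 in propranolol TAMs. Of 5491 genes outside the lists with a mean log2 CPM of at least 5, those with the most similar 4 values were Xdh, Sdha, Nol9, Ftsj3 and Stx4a, at Euclidean distances of 0.02 to 0.04. This likeness rests on 4 libraries.

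The GC content of the 9 members other than B2m was between 52.5% and 57.1%, where the median of all genes was above 0. The tested genes within 1 percentage point had medians of 0.36 for Psmb9, 0.37 for H2-K1, 0.44 for H2-D1, 0.47 for Psmb10 and 0.27 for Psmb8. These 5 members exceeded the median of such genes by 0.17 to 0.26 on the log2 scale. Psmb9 (0.62) and Psmb10 (0.72) lay above the upper quartile of such genes, which was 0.60 and 0.71. All other members lay between the quartiles of the genes of like GC content. Tap1 was 0.28 below the median of the genes of like GC content, Nlrc5 was 0.20 below, Tapbp 0.19 below and Tap2 0.08 below. B2m differed from that median by 0.03. The part of base composition in the members' values was not tested beyond these fits.

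**Figure D3:**
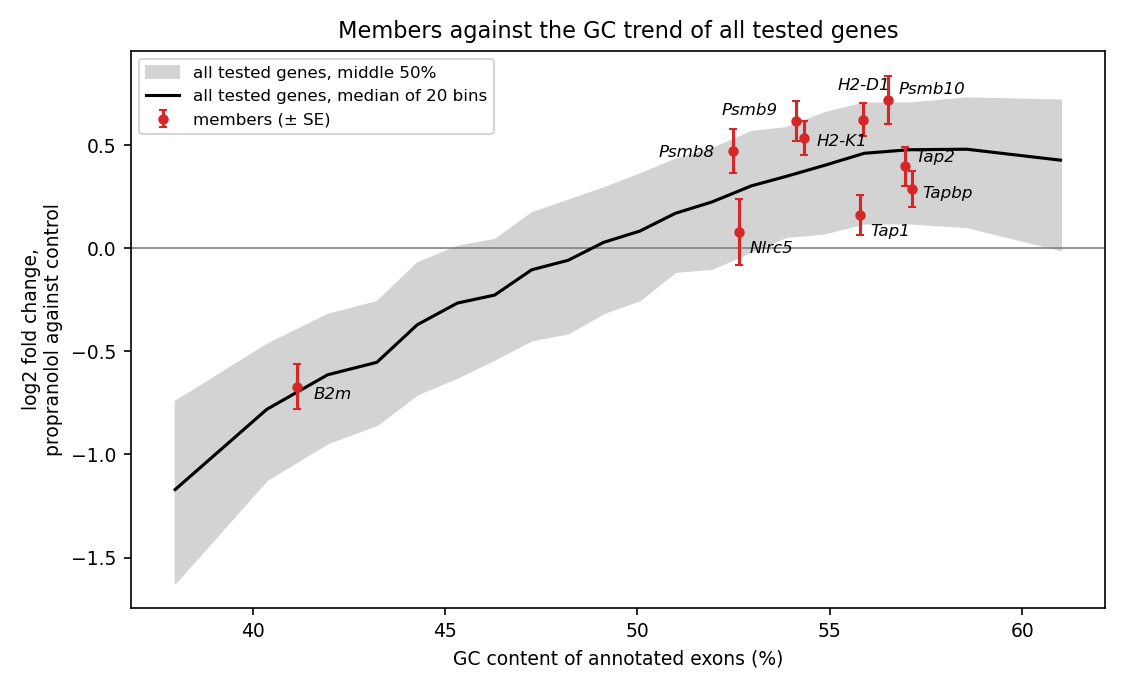
Log2 fold change (propranolol against control) against GC content (%). The GC content is that of the longest annotated transcript of each gene, although the axis names annotated exons. The line is the median of all tested genes in 20 bins of GC content, the grey band holds the middle 50% of each bin, and red points are the members with SE. B2m lay on the line at 41.2% GC, while H2-D1, H2-K1, Psmb8, Psmb9 and Psmb10 lay above it and Tap1, Tap2, Tapbp and Nlrc5 below it.

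Transcript levels were compared between members as TPM, which divides counts by the length of the annotated exons. In control TAMs, B2m was the most abundant at 10050 and 9642 TPM. H2-D1 followed at 4259 and 4341 TPM and H2-K1 at 3427 and 3633 TPM. Tapbp had 591 and 597 TPM, well below the chains it helps to load.

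The remaining members formed a lower tier. Psmb10 had 328 and 369 TPM and Psmb8 had 318 and 352 TPM, and these neighbours overlapped. Tap1 had 272 and 296 TPM. Psmb9 had 181 and 196 TPM and Tap2 had 168 and 182 TPM, which overlapped as well. Nlrc5 was the lowest with 69.7 and 107 TPM.

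In propranolol TAMs, H2-D1 had 5687 and 5549 TPM and B2m had 5667 and 4800 TPM, so that their ranges overlapped and B2m was no longer first. H2-K1 had 4415 and 4255 TPM. The order of the other members was the same as in control TAMs. With the length of the principal transcript instead, the means in propranolol TAMs were 5465 TPM for H2-K1, 4789 for H2-D1 and 3635 for B2m. In control TAMs these means were 4498 for H2-K1, 3704 for H2-D1 and 6913 for B2m. The order of H2-K1 and H2-D1 in both groups, that of B2m in propranolol TAMs and the order from Tapbp to Psmb9 thus depended on the length used.

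The ratio of heavy chain to light chain transcripts, chosen after the values were seen, summed this difference. H2-K1 and H2-D1 together had 0.765 and 0.827 times the TPM of B2m in the control libraries. In the propranolol libraries this was 1.78 and 2.04 times. The difference was 1.26 on the log2 scale, with a pooled SD of 0.11. With 2 libraries in each group, the exact permutation test cannot give a p below 0.33, which is the value found. After GC correction the difference was 0.23. The level of the ratio depended on the length used, and with the principal transcript it was 1.14 and 1.24 in control TAMs and 2.65 and 3.03 in propranolol TAMs, with a difference of 1.25.

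Each immunoproteasome subunit was set against the constitutive subunit that it replaces. Psmb5, Psmb6 and Psmb7 are the catalytic subunits of the standard 20S core. Psmb5 had 71.8 and 67.4 CPM in the control libraries and 110 and 89.5 CPM in the propranolol libraries (log2 fold change 0.53 ± 0.12 (SE), adjusted p = 0.00672). Psmb6 had 113 and 122 CPM in the control libraries and 210 and 192 CPM in the propranolol libraries, and rose with a log2 fold change of 0.78 ± 0.10 (SE; adjusted p = 0.00036). Psmb7 had 88.9 and 82.7 CPM in the control libraries and 106 and 75.1 CPM in the propranolol libraries, which overlapped. With GC correction Psmb5 was higher by 0.20, Psmb6 by 0.66 and Psmb7 by 0.86, and the latter pair was changed.

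The TPM ratio of Psmb8 to Psmb5 was 1.22 and 1.40 in control TAMs and 1.23 and 1.29 in propranolol TAMs, which overlapped. The difference was -0.05 on the log2 scale with a pooled SD of 0.10 (exact permutation p = 1). Psmb9 to Psmb6 was 0.916 and 0.897 in control TAMs and 0.812 and 0.811 in propranolol TAMs, lower by 0.16 with a pooled SD of 0.01. Psmb10 to Psmb7 was 3.86 and 4.54 in control TAMs and 6.11 and 7.10 in propranolol TAMs, a log2 difference of 0.65 with a pooled SD of 0.16. The exact permutation p was 0.33 for both, the smallest possible. After GC correction the differences were 0.11 for Psmb8, -0.30 for Psmb9 and -0.46 for Psmb10, so the direction of the first and the last reversed. With the length of the principal transcript, the ratios in control TAMs were 2.53 and 2.90 for Psmb8, 1.06 and 1.04 for Psmb9 and 1.70 and 2.001 for Psmb10, while the log2 differences between the groups stayed as above. Psmb7 had a GC content of 40.8% and Psmb10 one of 56.5%.

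**Figure D4:**
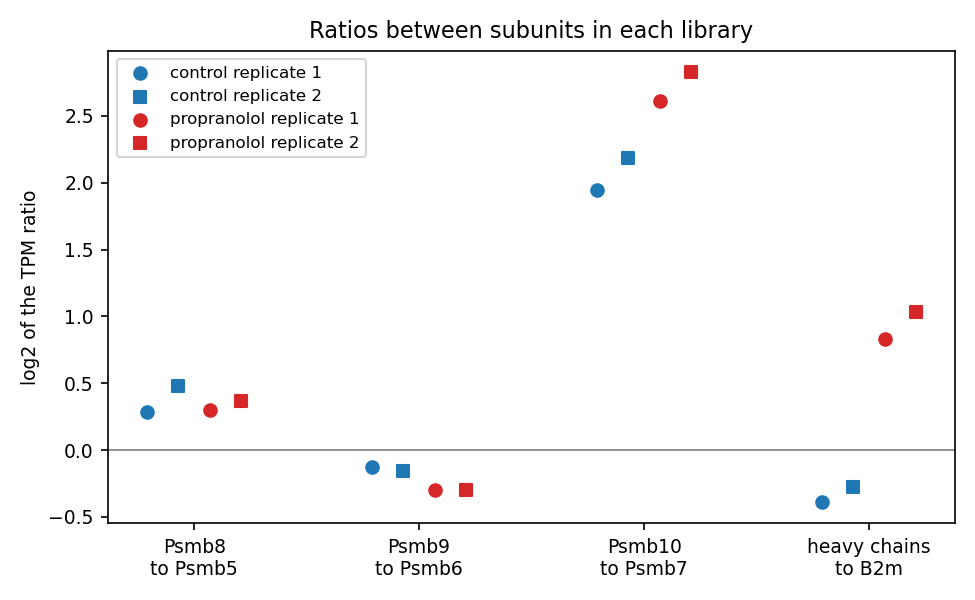
Log2 of the TPM ratio in each library for 3 pairs of immunoproteasome and constitutive subunits and for the heavy chains (H2-K1 plus H2-D1) against B2m, with colours for the groups and shapes for the replicates. The groups overlapped for Psmb8 to Psmb5 and were apart for the other ratios, whose values before GC correction are plotted, and the Psmb8 and Psmb10 differences reversed with that correction.

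Further genes of the pathway were read from 7 lists of 108 genes, of which 103 were tested. In these lists together, 7 genes rose and 18 fell, against 12.2% and 15.6% of all tested genes. With GC correction 11 were higher and 4 lower, against 7.64% and 4.97% of all tested genes. Among the nonclassical class I genes, H2-M3 and H2-Q10 rose, Mr1 fell and 9 of 12 tested genes did not change. H2-M3, which presents formylated peptides, had 86.4 and 85.2 CPM in the control libraries and 133 and 130 CPM in the propranolol libraries (log2 fold change 0.61 ± 0.10 (SE), adjusted p = 0.000926). With GC correction its value was 0.53, below the fold threshold. H2-Q10, a secreted class I molecule, was rare, at 2.43 and 1.95 CPM against 5.50 and 5.44 CPM, and whether reads of its paralogs were counted there was not tested. Mr1, which presents vitamin metabolites, fell by 0.61 on the log2 scale. Its value was -0.08 with GC correction, -0.37 without control replicate 1 and -0.48 without propranolol replicate 2, and it was not changed in any of these fits. H2-T23 (Qa-1), the most abundant of the list, had a log2 fold change of 0.36.

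Among 16 partners in peptide trimming and loading, 4 fell and 1 rose, against 15.6% and 12.2% of all tested genes. With GC correction 0 were lower and 4 higher (Hspa5, Tpp2, Thop1 and Blmh), against 4.97% and 7.64% of all tested genes. Erap1, the aminopeptidase that trims peptides in the endoplasmic reticulum, had 140 and 126 CPM in the control libraries and 86.6 and 67.8 CPM in the propranolol libraries. It fell by 0.78 ± 0.13 on the log2 scale (SE; adjusted p = 0.00121). Pdia3, an oxidoreductase of the loading complex, fell by 0.70. Lnpep, an aminopeptidase of endosomes, fell by 1.33 and Tpp2, a cytosolic tripeptidyl peptidase, by 0.73. Thop1, a cytosolic peptidase, rose by 1.18. The most abundant of the list, Calr, which encodes the chaperone calreticulin, had a log2 fold change of 0.12. With GC correction Tpp2 was higher by 0.67 and Thop1 by 0.86, while Erap1 was at -0.08, Lnpep at -0.49 and Pdia3 at -0.46, and none of these last was changed. Pdia3 was also not changed without control replicate 1 (-0.58) or without propranolol replicate 2 (-0.52).

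The proteasome activator subunits Psme1 and Psme2, which form the interferon-inducible cap, did not change. Psme1 had 234 and 239 CPM in the control libraries and 282 and 249 CPM in the propranolol libraries, and Psme2 had 141 and 144 CPM and 148 and 111 CPM. Psme4, an activator of another family, fell by 0.73, and 1 of 5 genes of this list changed, against 27.8% of all tested genes. Psme4 was at -0.26 with GC correction and at -0.58 without propranolol replicate 2, and was changed in neither. Of the 14 constitutive 20S subunits, Psmb3 (log2 fold change 0.78) and Psmb6 rose and 12 did not change, while 12.2% of all tested genes rose. With GC correction 4 subunits were higher, against 7.64% of all tested genes, since Psma2 (1.13) and Psmb7 (0.86) were then changed as well. Psmb4 had a log2 fold change of 0.30. Its mean TPM over the 4 libraries was the highest of the list by the length of all exons, but it was first in neither group. Psma6 was higher in control TAMs (297 against 283 TPM). Psmb5 and Psmb6 were higher in propranolol TAMs (312 and 302 against 294 TPM).

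Of 27 upstream regulators, Nfya rose, Ifng, Jak2 and Creb1 fell, and 23 did not change. Among all tested genes 12.2% rose and 15.6% fell. Irf1, a transcription factor of the interferon response, had 238 and 269 CPM in the control libraries and 311 and 296 CPM in the propranolol libraries, with a log2 fold change of 0.26 ± 0.10 (SE; adjusted p = 0.0621). Ifng, which encodes interferon-gamma, had 8.83 and 7.97 CPM in the control libraries and 2.67 and 1.05 CPM in the propranolol libraries. It fell by 2.09 ± 0.38 on the log2 scale (SE; adjusted p = 0.00191). All 12 markers of T cells and NK cells fell in these libraries as well, with a median log2 fold change of -1.835. Which cells held the Ifng RNA was not tested. Nfya, a subunit of the factor that binds CCAAT, rose by 0.66. Jak2, a kinase of the interferon-gamma receptor, fell by 0.69 and Creb1, a factor that binds TGACG, by 0.65, and with GC correction Jak2 was at -0.26 and Creb1 at 0.27, neither changed. Ifng (-1.59) and Nfya (0.59) were changed with that correction too, and Nfkb1, a subunit of NF-kappa-B, was then higher by 0.65 and changed. Without propranolol replicate 2 Jak2 was at -0.55 and not changed. Ifngr1 had a log2 fold change of -0.20, and its mean TPM over the 4 libraries was the highest of the list by the length of all exons. By that length Irf1 (215 TPM) and Irf8 (205 TPM) were above Ifngr1 (195 TPM) in propranolol TAMs. By the length of the principal transcript, Irf8 was higher than Ifngr1 over the 4 libraries.

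Other genes induced by interferon-gamma were read beside the members, and the difference between the lists was not tested. Of 20 tested genes, 8 fell and 1 rose, against 15.6% and 12.2% of all tested genes. The median log2 fold change of the list was -0.52. Iigp1, a GTPase of cell-autonomous defence, fell by 1.84, Cxcl9, a chemokine for activated T cells, by 1.22, and the guanylate-binding proteins Gbp2 by 0.83, Gbp7 by 0.76 and Gbp5 by 0.65. Cxcl9 had 550 and 551 CPM in the control libraries and 282 and 189 CPM in the propranolol libraries. Icam1, an adhesion molecule, was the gene of this list that rose, with a log2 fold change of 0.63. The median GC content was 45.8% in this list and 55.1% in the members. With GC correction Iigp1, Cxcl9 and Gbp5 were changed, all lower, against 4.97% lower among all tested genes. Gbp7 was at -0.08, Gbp2 at -0.58 and Icam1 at 0.33, and none of these was changed. With GC correction and replicate block, Gbp2 was at -0.59 and changed. At an adjusted p under 0.05 alone, 5 genes of the list were higher and 4 lower with GC correction and no block. Of all 14681 genes in that fit, 2573 (17.5%) were higher and 959 lower. The medians in that fit were -0.15 for the list and 0.17 for the members.

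Of 9 class II genes, H2-Ob, a chain of the H2-O molecule that modulates peptide loading, fell by 0.69 and 8 did not change. Of all tested genes, 15.6% fell. H2-Ob was at -0.39 with GC correction, -0.47 without control replicate 2 and -0.55 without propranolol replicate 2, and was changed in none of these fits. H2-Aa, the alpha chain of I-A, had 2863 and 2983 CPM in the control libraries and 2568 and 2123 CPM in the propranolol libraries, with a log2 fold change of -0.32 ± 0.10 (SE; adjusted p = 0.0298). Its partner chain H2-Ab1, named after its values were seen, went the other way with a log2 fold change of 0.30 (adjusted p = 0.0192). With GC correction H2-Aa was at -0.05 and H2-Ab1 at -0.04. Cd74, the invariant chain and the most abundant class II gene, had a log2 fold change of -0.02 and overlapping groups, and was at -0.35 with GC correction. Ciita, the class II counterpart of Nlrc5, had 228 and 255 CPM in the control libraries and 224 and 217 CPM in the propranolol libraries, with a log2 fold change of -0.13 (adjusted p = 0.317). With GC correction Ciita was at -0.42, and Cd74 and Ciita then had an adjusted p under 0.05 but stayed below the fold threshold.

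**Figure D5:**
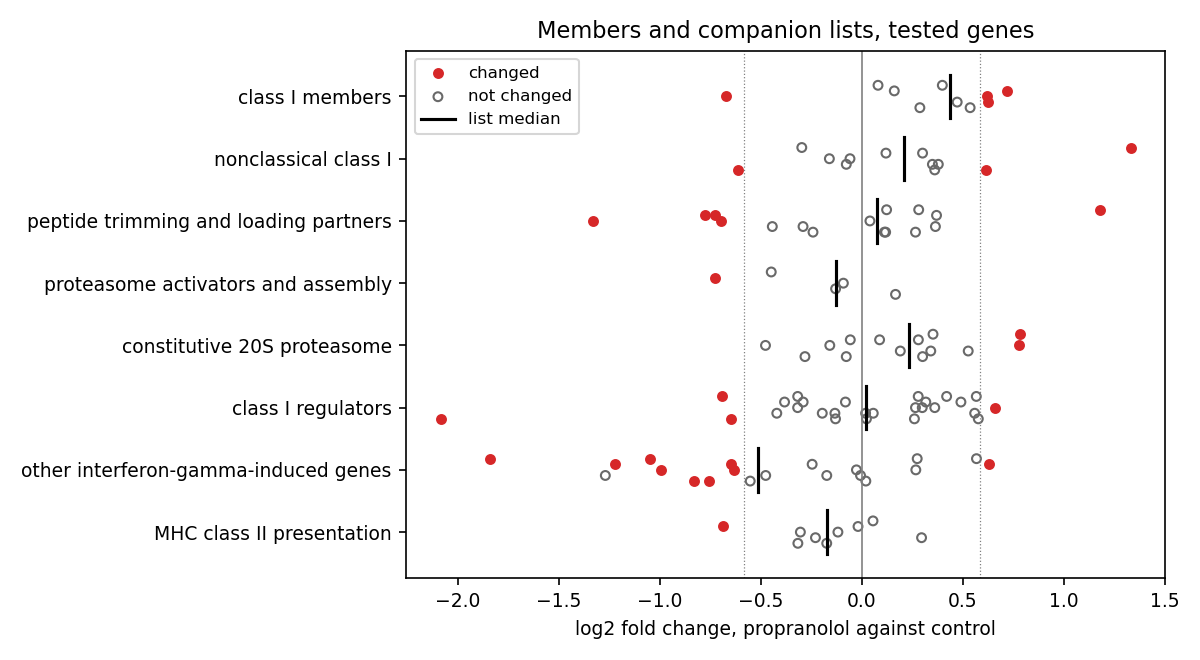
Log2 fold change (propranolol against control, without GC correction) of the tested genes of each list, with red points for changed genes, open points for the others, black bars for list medians and dotted lines at a 1.5-fold change. The median of the members was 0.43 and that of the other interferon-gamma-induced genes was -0.52, and with GC correction these were 0.17 and -0.15.

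Macrophage markers were abundant in every library. The 10 macrophage markers, which include Itgam and Adgre1 of the sort, summed to 33290 and 31490 CPM in the control libraries and 42040 and 40810 CPM in the propranolol libraries, and Apoe was the most abundant. Of these markers, 1 rose (Csf1r, log2 fold change 0.59) and 0 fell, against 12.2% and 15.6% of all tested genes. With GC correction Csf1r was at 0.32 and not changed, while Mrc1 was at 0.85 and changed.

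Markers of other cells moved between the groups, and class I genes are expressed by nearly all of these cells. All 12 markers of T cells and NK cells fell, with Gzmb as the most abundant. Their sum was 396 and 433 CPM in the control libraries and 171 and 83.8 CPM in the propranolol libraries. These values are RNA of the sorted cells and do not measure the cells of the whole tumor. In whole tumors, the study's flow cytometry found more CD4+ T cells, a trend to more CD8+ T cells and no change in NK cells after propranolol. The 8 markers of fibroblasts and fibrosarcoma cells summed to 3240 and 1181 CPM in the control libraries and 674 and 726 CPM in the propranolol libraries. Of these 6 fell, and control replicate 1 stood apart. Col3a1 was the most abundant in the control libraries and Col1a1 in the propranolol libraries. The 10 neutrophil markers summed to 143 and 175 CPM against 294 and 312 CPM, with Csf3r as the most abundant, while Ly6g, Mpo, Elane and Camp were at 0 counts in at least 1 library. Of the 5 tested neutrophil markers 3 rose. The counts of markers in these lists stand against 12.2% higher and 15.6% lower among all tested genes.

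Dendritic cell markers summed to 83.5 and 66.2 CPM in the control libraries and 47.4 and 44.8 CPM in the propranolol libraries, with 4 of 8 lower and Fscn1 the most abundant. The 7 B cell markers summed to 161 and 186 CPM against 188 and 216 CPM, with 2 higher, 1 lower and Ighm the most abundant. Endothelial markers summed to 50.4 and 47.8 CPM against 63.0 and 61.5 CPM, with 1 higher and Pecam1 the most abundant. For these lists too, the share of all tested genes was 12.2% higher and 15.6% lower. With GC correction 11 T cell and NK cell markers, 5 fibroblast and fibrosarcoma markers and 2 dendritic cell markers were lower. In the same fit 3 neutrophil markers, 1 B cell marker, 1 macrophage marker (Mrc1) and 0 endothelial markers were higher. Of all tested genes, 7.64% were higher and 4.97% lower with that correction. No marker was at 0 counts in all 4 libraries. The part of these cells in the members' values was not tested.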

How the data were processed

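TAMs from 2 control and 2 propranolol libraries were compared. The authors aligned reads to mm10 with STAR 2.7.1a, filtered them on mapping quality with SAMtools 1.9, counted exons of GENCODE genes with featureCounts 1.6.4 and deposited raw counts per gene. No strand option was named, and the submitters' processing notes also list DESeq2 1.39.0. Of 54146 genes, 54079 matched GENCODE M21 by identifier. The groups were compared with the edgeR 4.0.16 quasi-likelihood test (R 4.3.3; TMM factors; filterByExpr with a minimum count of 10; Benjamini-Hochberg adjustment over 14688 genes). The SE of a log2 fold change was its absolute value divided by the square root of the F statistic of that test. Low counts limit the precision of rare genes. CPM are on the TMM scale, and TPM used the union of annotated exons. The GC correction removed a natural spline with 5 degrees of freedom through offsets. GC content was that of the longest annotated transcript of each gene. Other alternatives were DESeq2 1.42.0, limma-voom 3.58.1, other size factors and filters, each library left out, and the replicate block. Steps were tested on simulated data. The members and lists were chosen with earlier results of these data known. Named genes were all members, up to 6 changed genes and the most abundant gene of each list, and 9 fixed genes, of which 1 is not reported here. The heavy to light chain ratio, the motif spacing, principal transcript lengths and corrected fits without a library were added after the data were seen.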

Additional observations from a re-analysis of the deposited data

How the results depend on the processing

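The number of changed genes, 4084, was 6204 without the fold threshold, 1851 with GC correction and 2120 with GC correction and replicate block. The number of changed members, 4, was 8 without the fold threshold, 2 with upper-quartile factors, 0 with GC correction and 0 with GC correction and replicate block, and 1 to 5 with a library left out. It was lowest without propranolol replicate 1 and highest without propranolol replicate 2. The changed genes of the other lists, 25, were 51 without the fold threshold and 15 with GC correction. The members' median log2 fold change, 0.43, was 0.17 with GC correction, with or without the block, and 0.35 to 0.55 with a library left out. The log2 difference of Psmb8 to Psmb5 reversed to 0.11 with GC correction and was -0.15 to 0.052 with a library left out. With GC correction, Psmb9 to Psmb6 was -0.30, Psmb10 to Psmb7 reversed to -0.46, and heavy chains to B2m was 0.23. Directions that reversed with GC correction, without and then with the block, were those of B2m (0.064 and 0.062), Tap1 (-0.15 and -0.16), Tapbp (-0.048 and -0.050), Nlrc5 (-0.10 and -0.076), Creb1 (0.27 and 0.27), Psme1 (-0.15 and -0.16) and Tpp2 (0.67 and 0.67). With GC correction and a library left out, in the order control replicate 1, control replicate 2, propranolol replicate 1 and propranolol replicate 2, B2m was 0.16, 0.044, -0.025 and 0.19, Tap1 was -0.14, -0.12, -0.26 and -0.0080, Tapbp was 0.0032, -0.067, -0.12 and 0.059 and Nlrc5 was -0.31, 0.19, -0.043 and -0.13. Tap2 was -0.017 to 0.19 in these fits. Without GC correction, Cd74 reversed to 0.053 with no filter and was -0.056 to 0.051 with a library left out, where Nlrc5 was -0.12 to 0.41, Psmb7 -0.19 to 0.34 and Psme2 -0.35 to 0.089. The replicate block alone gave 4362 changed genes and 4 changed members, and the deviations of same-numbered libraries had a correlation of 0.17 over 2 pairs, so the numbers were not taken as a pairing. For single genes, 509 planned values kept their direction and side of the threshold, 48 fell below it, 8 passed it and 20 reversed. The cause of these differences was not tested. Groups of 2 libraries and their depth limit the precision of rare genes such as Ifng and H2-Q10.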
